A study of Mus musculus with 6 samples.

Results

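The enzymes that make serotonin and melatonin, and those that make and recycle the pterin cofactor of the first step, were followed in the pineal glands of newborn mice. The set holds 9 genes, Tph1, Tph2, Ddc, Aanat, Gch1, Pts, Spr, Qdpr and Pcbd1, of 18193 genes with a probe set that names 1 gene on the Affymetrix mouse array. They were chosen by name, and every probe set that the platform annotation gives to exactly 1 of them was taken, 13 in all. Where a gene had more than 1, the probe set with the highest mean over the 6 arrays stands for it and the other is given beside it. Of the 9 genes, 8 passed the filter on dim probe sets and were tested among 12797 genes, and Tph2 did not pass.

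The mutant group was homozygous for a NeuroD1 knockout on a 129 background, and the comparison group was wildtype 129. Each group had 3 samples at postnatal day 0, each a pool of 3 glands on its own array. All mice lived under 12 h light and 12 h dark cycles and their glands were taken in the daytime, and no further treatment is listed. Neither the removed part of Neurod1 nor the tissues it was removed from are given in the labels, and the pools hold whole glands, so fewer cells of a type cannot be told apart from less RNA per cell.

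In the pineal gland, tryptophan hydroxylase (Tph1 here, Tph2 in serotonin neurons of the brain stem) turns tryptophan into hydroxytryptophan, and aromatic amino acid decarboxylase (Ddc) turns that into serotonin. Aanat acetylates serotonin, and a methyltransferase, Asmt, which was not analysed here, completes melatonin. Tryptophan hydroxylase needs tetrahydrobiopterin. Gch1, Pts and Spr build this cofactor from guanosine triphosphate in that order, and Pcbd1 and Qdpr regenerate it after each round of hydroxylation. In rodents Aanat rises at night under noradrenaline and cyclic AMP. All glands here were taken in the daytime, so these data cannot tell whether Aanat had such a rhythm at postnatal day 0.

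Both annotated starts of Tph1 are shown because Tph1 was among the 2 genes of the set with the largest differences, the other being Ddc. RefSeq sequence on GRCm38.p6 was at hand for 8 of the 9 genes, each as 250 bases before and 50 after a start, and Aanat was not among them. Capitals mark matches to E-boxes (CANNTG, the element of basic helix-loop-helix factors such as Neurod1), to TAATCC and TAATCT (the Crx and Otx2 class) or to TGACG (the core of the cyclic AMP response element), searched on both strands. Both windows lie on chromosome 7, minus strand, and are written 5′ to 3′ in the direction of the gene, at chr7:46672488-46672787 for the upstream start and chr7:46667328-46667627 for the downstream start.
Tph1 upstream start: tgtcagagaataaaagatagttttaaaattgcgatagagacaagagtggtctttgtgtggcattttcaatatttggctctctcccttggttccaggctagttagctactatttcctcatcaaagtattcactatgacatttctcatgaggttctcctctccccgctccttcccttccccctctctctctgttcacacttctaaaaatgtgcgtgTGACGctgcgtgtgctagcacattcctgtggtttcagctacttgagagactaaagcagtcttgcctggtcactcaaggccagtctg
Tph1 downstream start: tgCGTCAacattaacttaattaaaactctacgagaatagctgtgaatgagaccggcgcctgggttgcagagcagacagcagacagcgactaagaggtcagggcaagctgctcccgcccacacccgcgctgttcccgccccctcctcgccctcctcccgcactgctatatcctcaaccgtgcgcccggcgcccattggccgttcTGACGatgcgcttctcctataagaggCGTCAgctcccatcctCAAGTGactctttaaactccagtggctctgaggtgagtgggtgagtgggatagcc

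The upstream Tph1 window held 1 TGACG, 36 bases before the start, and no E-box. The downstream window held 1 E-box, CAAGTG, 5 bases before the start, and 3 TGACG matches. An E-box occurred in 72.3% and a TGACG in 20.8% of all 32851 promoter windows of this length. The full element TGACGTCA, present in 1.79% of all windows, was in none of the 10 windows of the set. Gch1 also held 1 TGACG, 88 bases before its start. Both Ddc windows and those of Pts and Pcbd1 held none of the letters searched. CAGATG, found in 17.2% of all windows, occurred in Qdpr, and CAGCTG, found in 16.3%, in Tph2. TAATCC occurred in Spr and TAATCT in Tph2, against 7.06% and 8.19% of all windows. A match describes the letters only, and the array does not tell which start was used.

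Array medians of the deposited signal ran from 132.4 to 183.7. Neurod1 followed the labels, with signals of 390.2, 524 and 122.5 in knockout pools and 9027, 9301 and 7519 in wildtype pools, and it was the 1 gene of 12797 called (limma adjusted p = 0.0362). Single pools stood apart in ways that genotype did not order. The choroid plexus gene Ttr was low in knockout pool 3 and wildtype pool 1, the germ cell gene Crisp2 was high in both pools numbered 2, and ribosomal protein genes were high in knockout pool 1. Pools of the same number share a date in their titles. Among markers of the labelled tissue other than the genes of the set, Crx, a homeobox factor of pinealocytes and photoreceptors, had signals of 1681 to 5549 in knockout and 2772 to 5902 in wildtype pools, and Otx2, a homeobox factor needed for pineal development, 9618 to 12144 in knockout and 12786 to 15178 in wildtype pools.

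None of the 8 tested genes changed at an adjusted p under 0.05 in limma, against 0.00781% of all genes tested, which is Neurod1 alone. The mean was lower in knockout for 7 of the 8 and higher for 1, Spr, against 46.8% of all tested genes with a lower mean. The median log2 difference, knockout minus wildtype, was −0.45 for the 8 genes and 0.03 for all 12797. Ddc alone had a limma unadjusted p under 0.05, as did 3.34% of all genes. With the pool number as a replicate block, Ddc and Tph1 did, as 2 of 8, against 6.24% of all genes, and the adjusted p of the 8 genes lay between 0.768 and 0.901. Aanat alone had every knockout pool below every wildtype pool, a pattern shown by 4.33% of all genes, and none of the 8 had every knockout pool above, as 5.77% of all genes did. Log2 differences are on the scale log2(signal + 38.6), which understates the change of dim genes.

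**Figure D1:**
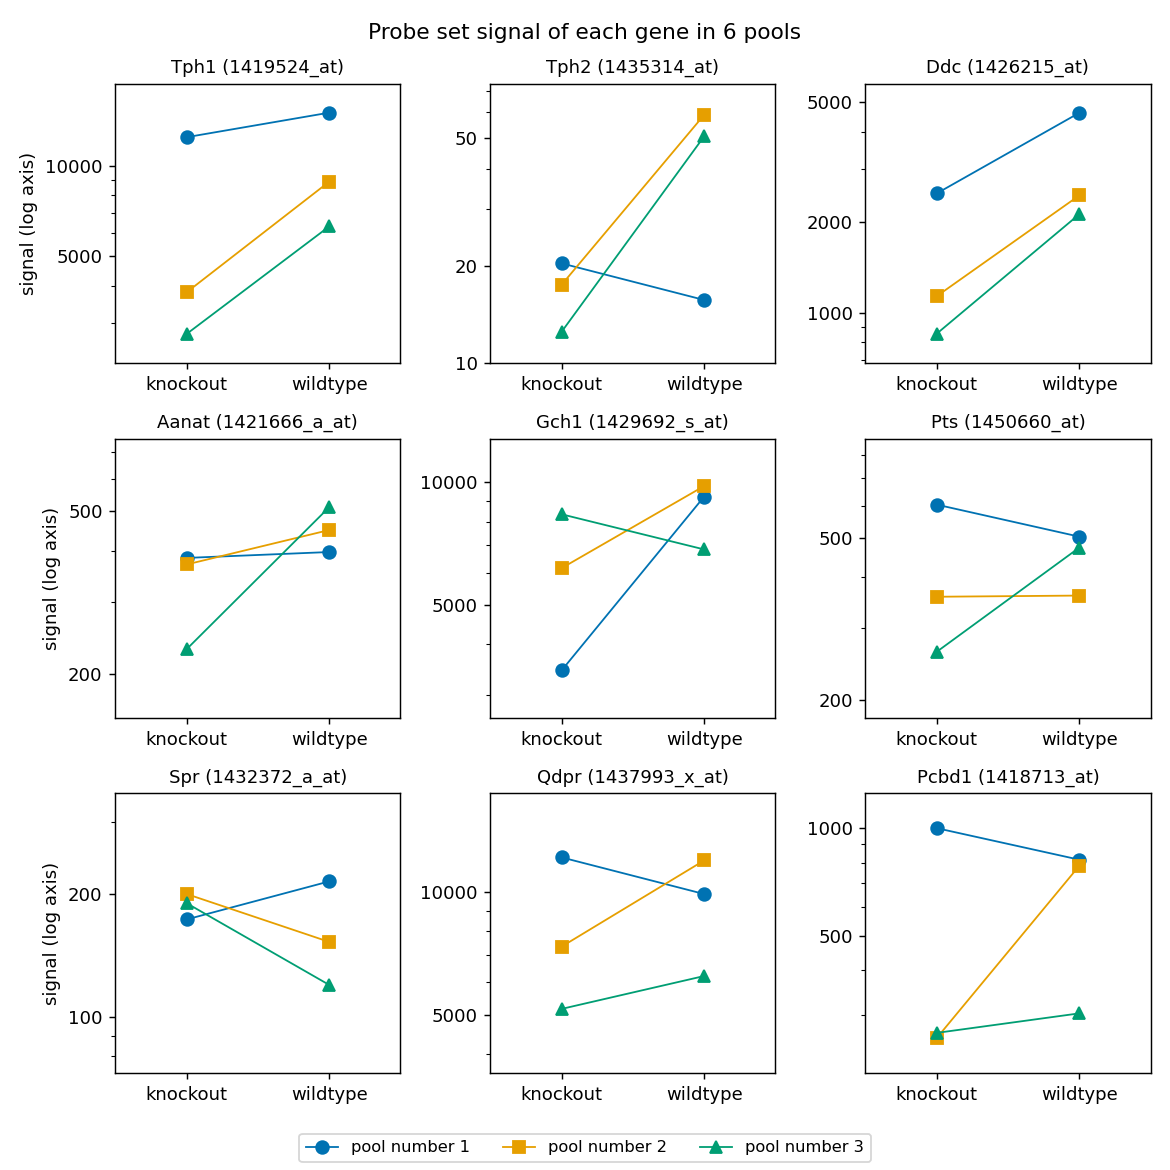
Signal of the chosen probe set of each gene (y axis, log scale, arbitrary array units) in knockout (left) and wildtype pools (right), where each line joins the pools of 1 number. Tph1 and Ddc have their highest knockout and highest wildtype signal in pool number 1, and only Aanat has no overlap between the genotypes.

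Tph1, the first and rate-limiting enzyme of serotonin synthesis in the pineal gland, had signals of 12501, 3795 and 2755 in knockout pools 1, 2 and 3, against 15095, 8881 and 6296 in wildtype pools 1, 2 and 3 (probe set 1419524_at). The groups overlapped, since knockout pool 1 lay above wildtype pools 2 and 3. In both genotypes pool number 1 was the highest and number 3 the lowest, and the spread from highest to lowest was 4.54-fold in knockout and 2.40-fold in wildtype, both wider than the ratio of the means (knockout over wildtype 0.629). The log2 difference was −0.89 (SE 0.57, 95% interval −2.19 to 0.41, limma unadjusted p = 0.155, adjusted p = 0.998). With the pool number as a block the SE was 0.29, the interval −1.56 to −0.22 and the limma unadjusted p 0.0163, with an adjusted p of 0.768. The SD of Tph1 within groups on the log2 scale, 0.92, was larger than that of 94.4% of tested genes. Without knockout pool 1 the difference was −1.54, and without knockout pool 3 it was −0.45.

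Tph2, the tryptophan hydroxylase of brain stem serotonin neurons, had signals of 20.4, 17.5 and 12.5 in knockout pools and 15.7, 59.0 and 50.6 in wildtype pools (1435314_at). All 6 lie under the signal of 105 that the filter corresponds to, so Tph2 was not tested, and no level above background can be claimed for it from these files. Knockout pool 1 lay above wildtype pool 1, and the groups overlapped. In the fit without a filter its log2 difference was −0.49 (SE 0.31, limma adjusted p = 0.998).

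Ddc, which decarboxylates hydroxytryptophan and also dihydroxyphenylalanine, had the largest difference of the set. Its signals were 2493, 1138 and 854.5 in knockout pools 1, 2 and 3, against 4613, 2456 and 2127.5 in wildtype pools 1, 2 and 3 (1426215_at). Every knockout pool lay below the wildtype pool of its number, by −0.88, −1.08 and −1.28 on the log2 scale, although knockout pool 1 lay above wildtype pools 2 and 3. The ratio of means was 0.488 and the log2 difference −1.08 (SE 0.46, 95% interval −2.12 to −0.04, limma unadjusted p = 0.0430, adjusted p = 0.998). With the block its limma unadjusted p was 0.00190, which ranked 16 among 12797 genes, and its adjusted p 0.768. A difference lower than that of Ddc was found for 0.352% of all tested genes. The second Ddc probe set, 1430591_at, had 172, 76.2 and 27.8 in knockout and 194, 168 and 72.3 in wildtype pools, again lower in knockout within each number, but its mean did not pass the filter. The unadjusted p of Ddc exceeded 0.05 in the limma fits without knockout pool 2 (0.116), knockout pool 3 (0.134), wildtype pool 1 (0.166) or wildtype pool 2 (0.0638), and without both pools of number 2 (0.151) or number 3 (0.0939). It also exceeded 0.05 with quantile normalization (0.0516) and with all probe sets of a gene averaged (0.0881, log2 difference −0.83).

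Aanat, whose enzyme sets the night-time rhythm of melatonin, had signals of 384, 370.3 and 229.5 in knockout and 397, 449.8 and 512 in wildtype pools (1421666_a_at). The groups did not overlap, but the highest knockout pool, number 1, lay close under the lowest wildtype pool, also number 1. The mean was 328 ± 85.6 in knockout and 453 ± 57.2 in wildtype pools (SD, n = 3 each), and the log2 difference −0.45 (SE 0.28, 95% interval −1.07 to 0.18, limma adjusted p = 0.998). Within numbers 1, 2 and 3 it was −0.04, −0.26 and −1.04, so most of it came from number 3, and without both pools of number 3 it was −0.15. Unlike Tph1 and Ddc, Aanat was not highest in pool number 1 in wildtype glands.

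**Figure D2:**
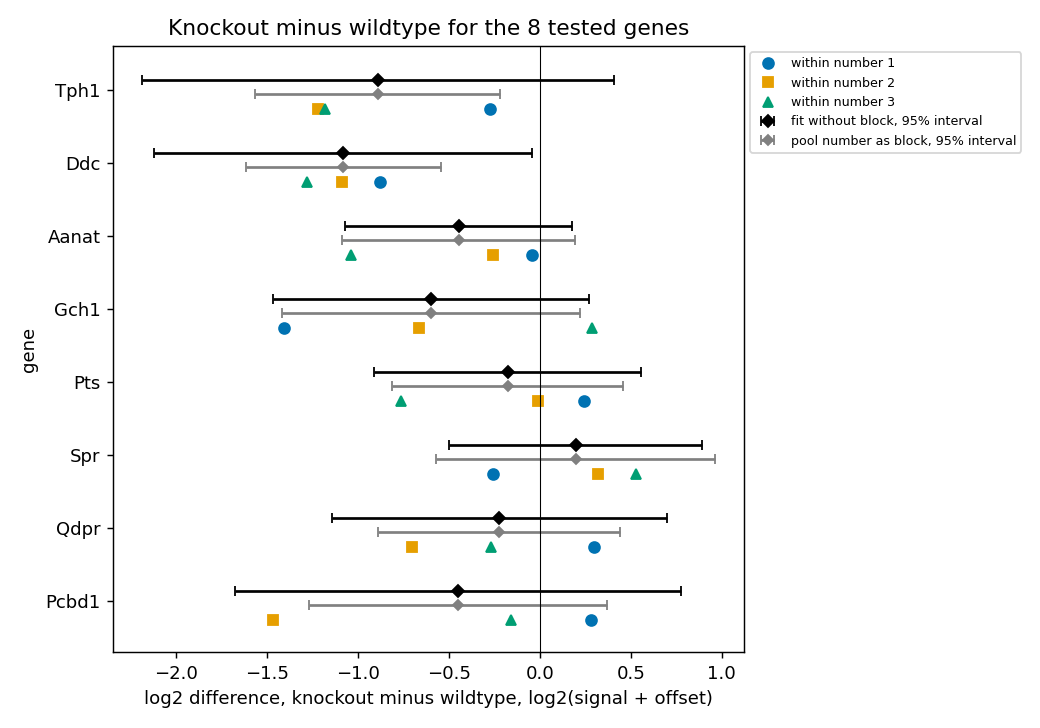
Log2 difference, knockout minus wildtype (x axis, log2(signal + 38.6)), for the 8 tested genes (y axis), with 95% intervals from limma without a block (black) and with the pool number as a block (grey), and the difference within each pool number (coloured). The blocked intervals of Tph1 and Ddc lie wholly below 0, with adjusted p of 0.768 for both, and those of the other 6 genes include 0.

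Gch1, the GTP cyclohydrolase that makes the first and limiting step towards tetrahydrobiopterin, gave different patterns in its 2 probe sets. The chosen one, 1429692_s_at, had signals of 3454, 6153 and 8339.8 in knockout pools 1, 2 and 3, against 9215, 9780.0 and 6838 in wildtype pools 1, 2 and 3. Here knockout pool 1 was the lowest of all 6, and knockout pool 3 lay above wildtype pool 3. The other, 1420499_at, had 1644, 338 and 506 in knockout pools 1, 2 and 3, against 1569.8, 800.1 and 940.4 in wildtype pools, with knockout pool 1 as the highest of all 6. Within number 1 the log2 difference was −1.41 by the first and 0.06 by the second, and within number 3 it was 0.28 and −0.85. The differences of the means were nonetheless alike, −0.60 (SE 0.38, 95% interval −1.46 to 0.27) and −0.64 (SE 0.54), neither called in limma (adjusted p = 0.998 and, for the second in a fit of all 22012 single-gene probe sets past the filter, 0.999). The root mean square distance between the 2 centred log2 profiles was 1.03, against 0.19 for the 2 probe sets of Qdpr. By Affymetrix naming the suffix s_at marks probes shared by several transcripts, and its part in the disagreement was not tested.

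Pts and Spr carry out the next steps of cofactor synthesis. Pts, the pyruvoyl tetrahydropterin synthase, had signals of 603, 359 and 263 in knockout pools 1, 2 and 3, against 503, 361 and 473 in wildtype pools 1, 2 and 3 (1450660_at). Knockout pool 1 was the highest and knockout pools 2 and 3 the lowest of the 6, so the groups overlapped, and the log2 difference was −0.18 (SE 0.32, 95% interval −0.91 to 0.56, limma adjusted p = 0.998). A second Pts probe set, 1458402_at, lay between 10.8 and 37.5 in knockout and between 3.6 and 12.4 in wildtype pools, under the filter. Spr, the sepiapterin reductase, was the 1 gene with a higher mean in knockout, with signals of 173, 200.1 and 190.0, against 215, 153 and 119.8 in wildtype pools 1, 2 and 3 (1432372_a_at). The groups overlapped because wildtype pool 1 was the highest of the 6. Its log2 difference was 0.20 (SE 0.31, 95% interval −0.50 to 0.89, limma adjusted p = 0.998), and the values varied less within groups than those of most genes, with an SD larger than that of 17.0% of tested genes.

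Qdpr and Pcbd1 recycle the cofactor. Qdpr, the quinoid dihydropteridine reductase, had signals of 12150.3, 7342 and 5167 in knockout pools 1, 2 and 3, against 9879.7, 11944 and 6220.5 in wildtype pools 1, 2 and 3 (1437993_x_at). Number 3 was the lowest in both genotypes and the groups overlapped. The log2 difference was −0.22 (SE 0.41, 95% interval −1.14 to 0.70, limma adjusted p = 0.998). The other probe set, 1423664_at, had 1417, 1195 and 675 in knockout and 1652.0, 1519.7 and 803 in wildtype pools, lower in knockout within each number by −0.22, −0.34 and −0.24 (log2 difference −0.26, SE 0.39, from the fit of all probe sets). The 2 probe sets thus differ in number 1, where the chosen one was higher in knockout by 0.30.

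Pcbd1, the pterin carbinolamine dehydratase, had signals of 998, 259 and 267.5 in knockout pools 1, 2 and 3, against 815, 783 and 303 in wildtype pools 1, 2 and 3 (1418713_at). Both groups held high and low pools, with 1 of 3 high in knockout and 2 of 3 in wildtype. The log2 difference was −0.45 (SE 0.54, 95% interval −1.67 to 0.77, limma adjusted p = 0.998), and −1.47 within number 2 against 0.28 and −0.16 within numbers 1 and 3. Its SD within groups was larger than that of 93.6% of tested genes, close to Tph1. Pools numbered 2 were those with germ cell transcripts, and the part of this in the Pcbd1 difference was not tested.

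**Figure D3:**
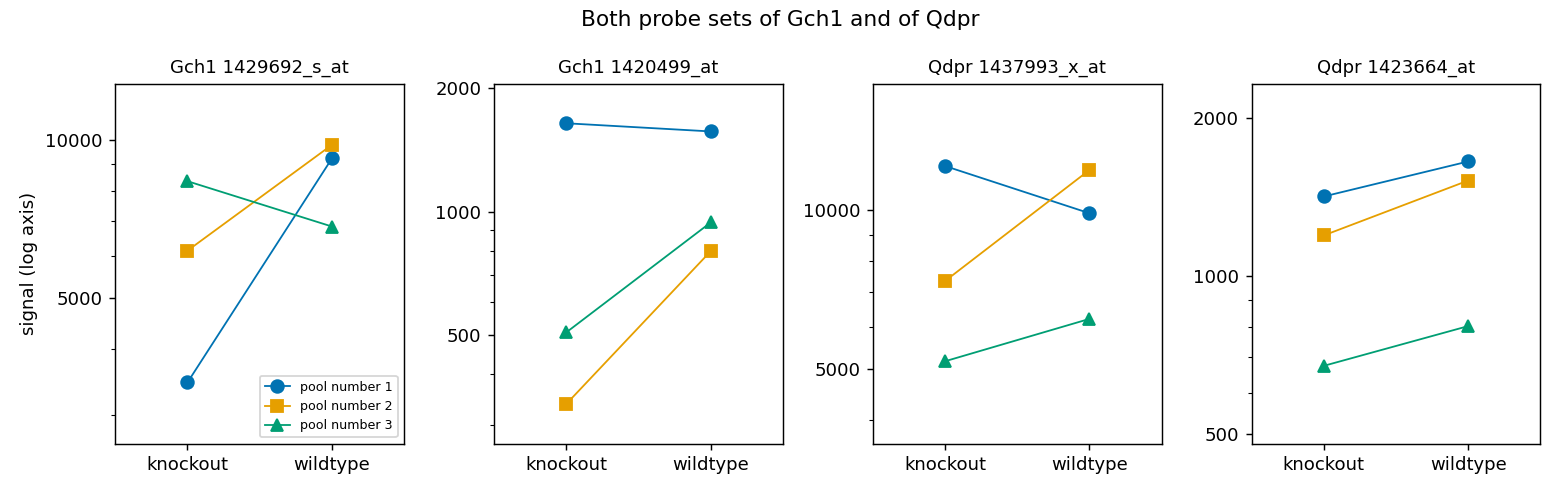
Signal (y axis, log scale) of both probe sets of Gch1 (2 left panels) and of Qdpr (2 right panels) that passed the filter, in knockout (left) and wildtype pools (right of each panel), where lines join pools of 1 number. Knockout pool 1 is the lowest pool in the first Gch1 panel, at 3454, and the highest in the second, at 1644, while both Qdpr probe sets are lowest in number 3.

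Read across pools rather than genes, knockout pool 1 stood apart from the other knockout pools. Relative to each gene's mean over the 6 pools, 7 of the 8 genes were above it in knockout pool 1, 1 in knockout pool 2 and 2 in knockout pool 3, against 8, 6 and 3 in wildtype pools 1, 2 and 3. The median of the 8 genes was 0.42, −0.19 and −0.67 on the log2 scale in knockout pools 1, 2 and 3 and 0.34, 0.33 and −0.08 in wildtype pools 1, 2 and 3. Knockout was lower for 5, 7 and 6 of the 8 genes within numbers 1, 2 and 3, against 44.3%, 49.7% and 54.4% of all tested genes. Tph1, Ddc and Aanat were lower within all 3 numbers, as were 15.4% of all tested genes. Without knockout pool 1, 5 of the 8 genes lay lower in knockout without overlap, Tph1, Aanat, Ddc, Pts and Pcbd1, against 15.3% of all genes with 2 pools against 3. In that fit 3 of the 8, Tph1, Ddc and Pcbd1, had a limma unadjusted p under 0.05 (0.00370, 0.00324 and 0.0357), against 9.07% of all genes, and none an adjusted p under 0.05. Without knockout pool 2 or knockout pool 3 the count was 0 of 8, against 321 and 481 of all 12797 genes. Knockout pool 1 was singled out by the values of these same 8 genes, so the counts without it are description and no test. The shares of all genes do not allow for that choice.

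Values of other transcripts moved with those pools. The 13 tested genes of a pinealocyte and photoreceptor list had a lower mean in knockout for 10 and a higher one for 3, with a median log2 difference of −0.38 and none called. The median of this list relative to the 6 pools was 0.42, −0.33 and −0.38 in knockout pools 1, 2 and 3 and 0.61, 0.15 and −0.17 in wildtype pools 1, 2 and 3, so pool number 1 was the highest in both genotypes, as for Tph1 and Ddc. Its summed signal ran from 27235 to 44012 in knockout and from 35967 to 49962 in wildtype pools, and Rcvrn, the recoverin gene, lay under the filter at 7.2 to 24.5 over all pools. Rax, whose mean was also under the filter, had 35.8, 84.3 and 68.5 in knockout and 105.3, 163.5 and 220.5 in wildtype pools. Of the 13 tested, only Otx2 (−0.40) and Pax6 (−0.59) were lower in knockout without overlap, against 4.33% of all genes. Sag, the arrestin gene of photoreceptors and pinealocytes, had 10001.2, 4717 and 3894 in knockout pools and 12932, 11037 and 6638 in wildtype pools. Its log2 difference, −0.78, was the lowest of the 13. The 3 genes with a higher mean in knockout were Pdc (0.21), Pde6b (0.17) and Lhx4 (0.16). The 47 tested ribosomal protein genes had a median of 1.13 in knockout pool 1 relative to the 6 pools, and between −0.53 and 0.01 in the other 5. The part of these shifts in the differences of Tph1, Ddc and Pcbd1 was not tested.

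**Figure D4:**
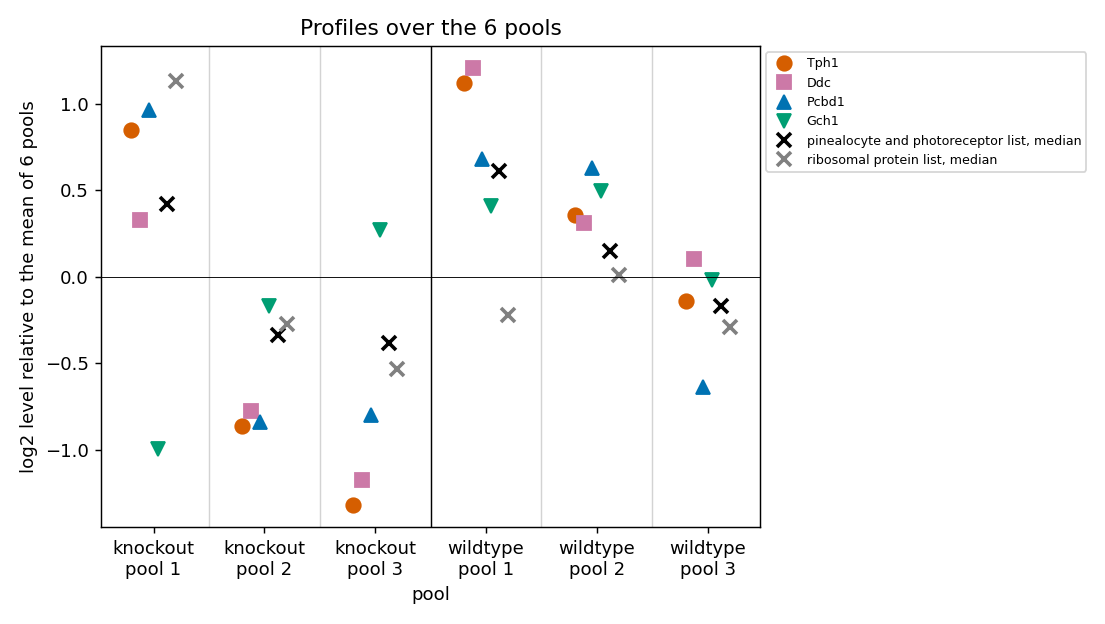
Log2 level relative to the mean of the 6 pools (y axis) of Tph1, Ddc, Pcbd1 and Gch1 (chosen probe sets), and the median of the pinealocyte and photoreceptor list and of the ribosomal protein list, in each pool (x axis, knockout left, wildtype right). Tph1, Pcbd1 and ribosomal genes are high in knockout pool 1, at 0.85, 0.96 and 1.13, and Gch1 is low there at −0.99.

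Among the 8 genes the profile most like that of Tph1 was that of Ddc, with a root mean square distance of 0.25 between their log2 values over the 6 pools, each centred on its mean. Only 0.125% of tested genes outside the set lay nearer to Tph1. Pcbd1 was at 0.37 from Tph1, with 0.891% of genes nearer, while Gch1 was at 1.07, farther than the median gene at 0.90. The 5 genes outside the set nearest to Tph1 were Ttll1, a tubulin polyglutamylase (0.13), Cfap298, a cilium gene (0.15), Tlcd3b (0.18), Olfm1, an olfactomedin (0.19), and Aven, an inhibitor of apoptosis (0.19). None of them was called, and their log2 differences ran from −0.73 to −0.61.

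The 5 nearest to Ddc were Idi1, of isoprenoid synthesis (0.15), Coq8b, of coenzyme Q synthesis (0.15), Trappc9, of vesicle tethering (0.16), Snapc1, of small nuclear RNA transcription (0.18), and Rxrg, a retinoid X receptor (0.20), against a median of 0.84 over all genes. Idi1 had signals of 803, 402 and 310.1 in knockout pools and 1709, 998 and 962 in wildtype pools. Its groups did not overlap, with knockout pool 1 the nearest to wildtype pool 3, and its log2 difference was −1.27 (SE 0.39). Of all tested genes, 4.33% were lower in knockout without overlap. None of the 5 nearest to Ddc was called. The 5 nearest to Aanat were Tmx1, a thioredoxin-related membrane protein (0.07), Crb1, a polarity gene of photoreceptors (0.07), Aida (0.08), Zfp354b, a zinc finger gene (0.09), and Col15a1, a collagen (0.10), against a median of 0.49. These likenesses rest on the same 6 arrays for every gene and say nothing of shared control.

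Other genes that serve the pathway were counted in 7 lists, with 39 tested members, of which 18 had a lower and 21 a higher mean in knockout. None passed an adjusted p under 0.05 in limma, and 2 of the 39 had an unadjusted p under 0.05, both higher, against 3.34% of all tested genes. The pools did not overlap for 4 of the 39, higher in knockout for Slc16a10 and Nos1 and lower for Slc3a2 and Mat2b, against 5.77% of all genes higher and 4.33% lower. Slc16a10, a carrier of aromatic amino acids, had signals of 234, 307 and 311 in knockout and 177.5, 43.7 and 120.2 in wildtype pools (log2 difference 1.18, SE 0.40). Nos1, the neuronal nitric oxide synthase and another user of tetrahydrobiopterin, had 564, 459.6 and 644 in knockout and 249, 397 and 382 in wildtype pools (0.65, SE 0.28). Slc3a2, the heavy chain of the large amino acid carriers that bring in tryptophan, had 803, 991.5 and 1121 in knockout and 1811, 1275 and 1320.5 in wildtype pools (−0.57, SE 0.29). The adjusted p was 0.998 for all 3.

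By list, the other pterin genes had 2 lower and 5 higher means among 7 tested (median log2 difference 0.37), with Nos3, the endothelial nitric oxide synthase, at 0.54 (SE 0.30). Tryptophan carriers and breakdown enzymes had 2 lower and 5 higher of 7 (0.09), and the catecholamine steps 2 and 2 of 4 (−0.07), with Th, the tyrosine hydroxylase that shares its cofactor with Tph1, at −0.18 (SE 0.29) and Pnmt, which makes adrenaline, at −0.74 (SE 0.47). Genes of pyridoxal phosphate supply, the cofactor of Ddc, had 1 lower and 2 higher of 3 (0.10), with the kinase Pdxk at 0.46 (SE 0.31) and the phosphatase Pdxp at −0.35 (SE 0.30). Genes of the methyl donor cycle had 5 lower and 1 higher of 6 (−0.14), among them Mat2b, a subunit of the enzyme that makes S-adenosylmethionine, at −0.17 (SE 0.27), and Mtrr, which reactivates methionine synthase, at −0.23 (SE 0.29). Genes of acetyl coenzyme A supply had 3 and 3 of 6 (0.02), with the pantothenate kinases Pank1 at 0.31 (SE 0.32) and Pank3 at −0.58 (SE 0.35). The Ywha adaptor proteins, which bind phosphorylated Aanat and tryptophan hydroxylase, had 3 and 3 of 6 (−0.06), with Ywhae at 0.52 (SE 0.39) and Ywhah at −0.38 (SE 0.34).

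Other cells that make or carry serotonin were read from marker lists. Mast cell markers had a higher mean in knockout for 6 of 7 tested genes and a lower one for Kit (median 0.50). Their summed signal ran from 5425 to 6865 in knockout and from 4047 to 4351 in wildtype pools, without overlap. This was not particular to mast cells. Macrophage and microglia markers summed to 9279.5 to 12721 in knockout and 7376 to 8282 in wildtype pools. Meningeal fibroblast markers summed to 101806 to 124240 in knockout and 81747 to 88289 in wildtype pools, also without overlap. Bright genes weigh most in such sums. In knockout pool 1, Col1a2 and Col3a1 gave 38406.9 and 30738.5 of the fibroblast sum, and Cpa3 gave 3110.2 of the mast cell sum. Among the tested genes of these lists, only Cpa3, Csf1r, Col1a2 and Col3a1 had pools without overlap, against 5.77% of all genes higher. The fibroblast genes Dcn and Lum differed by 0.02 and 0.09. Cpa3, a mast cell protease, had 3110.2, 3016 and 3518.5 in knockout and 1791, 1951 and 2073 in wildtype pools (log2 difference 0.72, SE 0.27, limma adjusted p = 0.998). Serotonin neuron markers had 3 higher and 1 lower mean of 4 tested (0.33), with a summed signal of 2144 to 3252 in knockout and 1444 to 2134 in wildtype pools. Of these, the serotonin transporter gene Slc6a4 had 249, 143 and 129 in knockout and 97.1, 19.4 and 23.0 in wildtype pools, and Gata3 lay at or below 27.0 in all, both under the filter. Dopamine and noradrenaline neuron markers, whose cells also hold Ddc and Gch1, had 3 higher and 1 lower of 4 (0.28), with a summed signal of 1223 to 1695 in knockout and 778 to 1484.5 in wildtype pools. In the serotonin neuron list, Lmx1b had 313.7, 328.7 and 359.8 in knockout and 191.6, 200.6 and 185.6 in wildtype pools. Its log2 difference was 0.69 (SE 0.25, limma adjusted p = 0.998), without overlap, a pattern shown by 5.77% of all genes. Gata2 alone gave 1392.8 of the list's summed 2144 in knockout pool 1. The median of the serotonin neuron list relative to the 6 pools was lowest in that pool, at −0.50. Within number 1 its median difference was −0.26. The part of these cells in the values of Tph1, Ddc and Gch1 was not tested.

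The remaining marker lists had 0 called genes in limma and mostly higher means in knockout, 10 of 11 for macrophages and microglia (median log2 difference 0.36), 6 of 6 for melanocytes (0.30), 6 of 7 for choroid plexus (0.39), 9 of 9 for meningeal fibroblasts (0.22), 8 of 9 for endothelial cells and pericytes (0.17), 5 of 6 for male germ cells (0.71) and 2 of 3 for habenula and thalamus neurons (0.39). Over all 11 marker lists, 6 of 79 tested genes had a limma unadjusted p under 0.05, all higher in knockout, against 3.34% of all tested genes.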

How the data were processed

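The authors deposited 1 linear fluorescence intensity for each of 45037 probe sets and 6 arrays. Per the labels' protocols, RNA was amplified once and labelled with biotin by 3-prime in vitro transcription. Signals came from GCOS per the submitters' processing notes, and neither its version nor its algorithm is stated. Trimmed means (2%) of 499.5 to 500.0 show that arrays had been scaled alike. Detection calls were not analysed here.

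Signals were used as log2(signal + 38.6), the 20th percentile of all values. Probe sets naming 1 gene numbered 34945. Of all 45037 probe sets, the 40% with the lowest mean log2 value were left out. Among the single-gene probe sets that remained, the 1 of highest mean stood for its gene. Knockout was compared with wildtype by limma 3.58.1 (R 4.3.3; lmFit, eBayes with trend, two-sided, Benjamini-Hochberg over 12797 genes, threshold 0.05), tested on simulated data. Exact permutation of 3 pools against 3 cannot go below p = 0.1. The design text calls the pools separate biological samplings, and the number of arrays limits the precision, with a median SE of 0.34. Same-numbered pools, dated alike, had deviations correlated by 0.32, 0.25 and 0.36 across genes, so they were treated as paired in an alternative fit.

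Named genes were the 9 members with every probe set, Neurod1, the 5 nearest profiles to Tph1, Ddc and Aanat, the 2 smallest p of each pathway list and the first 2 measured of each marker list, printed where they stand beside a result. Marker genes given as values beyond these (Sag, Rcvrn, Rax, Pax6, Pdc, Pde6b, Lhx4, Gata2, Lmx1b, Col1a2 and Col3a1) were chosen after their values were seen. Members, lists and tests were chosen with earlier results of these data known. Ribosomal genes were taken by symbol.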

Additional observations from a re-analysis of the deposited data

How the results depend on the processing

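The 8 tested genes gave 153 values under 20 alternatives, of which 142 kept their direction and stayed on their side of the threshold, 5 passed it and 6 reversed. The 5 came from limma's array weights, which called 2932 genes and 5 of the set (Tph1, Ddc, Gch1, Qdpr and Pcbd1) while giving weights of 6.20 and 7.05 to knockout and wildtype pool 2 and at most 0.541 to the rest, with a convergence warning. The cause was not tested. In all other alternatives 0 of the set were called, the lowest adjusted p being 0.523. The number of called genes was 0 without an offset, and between 0 and 1 when a pool or a pool number was left out. The replicate block left it at 1 and moved genes at an unadjusted p under 0.05 to 798, against 428 without it, and it changed no call of the set. The count of the set without overlap was 2 with all probe sets of a gene averaged (Aanat and Gch1), against 4.27% of all genes lower and 6.24% higher, and between 1 and 6 with pools left out. The 6, without number 1, were 5 lower and 1 higher (Spr), against 19.2% and 17.2% of all genes.

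Reversals were small. Pts was 0.082 with all probe sets averaged and ran from −0.47 to 0.12 with pools left out, Qdpr from −0.55 to 0.066 and Pcbd1 from −1.04 to 0.061. With pools left out Tph1 ran from −1.54 to −0.45, Ddc from −1.51 to −0.75, Aanat from −0.65 to −0.15, Gch1 from −1.04 to −0.19 and Spr from 0.03 to 0.42, with no reversal. Scaling each array to one median gave a median over all genes of −0.13, against 0.03 as deposited, and the 8 genes kept their directions, Spr at 0.05. With that scaling 64.2% of all tested genes had a lower mean in knockout, against 46.8% as deposited. Spr did not pass when the 60% dimmest probe sets were left out. Neurod1 ran from −5.04 to −4.13 with pools left out, and its call ended without an offset (adjusted p = 0.0737), without knockout pool 1 (0.0985), wildtype pools 1 (0.621), 2 (0.316) or 3 (0.376), and without numbers 1 (0.813), 2 (0.201) or 3 (0.0638). The other Gch1 and Qdpr probe sets were added after seeing the data.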
